A study of Mus musculus with 21 samples.

Results

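The small-subunit ribosomal proteins are the protein shell of the 40S subunit, and their genes were followed here through mRNA and ribosome footprint changes in 3 engineered lines of mouse embryonic stem cells. Members were taken by gene symbol from a list of 29 names, and 26 of them were found once in each table. The tables held 12905 genes for the RACK1 line, 12353 for the RPLP0 line and 12274 for the RPLP1 line. Rps12, Rps27 and Fau were in none of the 3 tables. A further 4 small-subunit genes are in the tables but not on the list, and they were not analysed here.

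The cells are E14, a widely used pluripotent mouse line that came from an early embryo. The genotype labels read RACK1-AID/RPS26-Tir1, RPLP0-AID/RPS26-Tir1 and RPLP1-AID/RPS26-Tir1: 1 protein per line carries an auxin-inducible degron (AID), and the plant receptor Tir1, which directs degron-tagged proteins to degradation once auxin is present, is named together with the small-subunit protein RPS26 in every line. Each line was treated for 8 h with the auxin IAA, and its controls received the solvent DMSO for the same 8 h. Per the labels, a line has 3 mRNA samples after IAA, 3 mRNA samples after DMSO, and 1 footprint library in which the replicates of both treatments are combined. Whether the replicates are separate cultures, whether a line is 1 clone, and where in the genome Tir1 was placed are not stated in the labels, so the spread behind an FDR may be technical. Every line carries Tir1 with RPS26 in treated and control cells alike, and no line without a degron was included, so the effect of IAA itself and that of removal cannot be told apart.

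Values are the authors' own comparisons, a log2 fold change and a false discovery rate (FDR, an adjusted p-value) for mRNA and for footprints. A positive log2 change was read as higher after removal, because each table's title announces changes after removal; which treatment is the numerator is not written there. No value per sample was used, so depth is unknown and what follows gives each member's change in the 3 lines instead of its level. The standard error (SE) beside a change is the one that the change and its FDR imply. All 8 stem cell marker genes looked for were listed in each table, as were 3 of 5 fibroblast markers, but a fold change does not show a level, so the labelled cell type could not be checked. The degron acts on protein, and Rack1, Rplp0 and Rplp1 mRNA had log2 changes of -0.15, -0.08 and -0.14 in their own lines in the authors' deposited table, none with an FDR below 0.05.

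The small subunit binds mRNA and reads its codons. Its head carries RACK1, a scaffold protein that sits beside Rps3 and Rps16, while the stalk proteins RPLP0 and RPLP1 belong to the large subunit. Ribosomal protein mRNAs are among the most abundant of a growing cell, and in mammals most of them begin with a terminal oligopyrimidine tract, a C followed by an unbroken run of C and T bases, through which the growth kinase mTOR controls their translation. Single ribosomal proteins that are not built into ribosomes are usually degraded, and in human cells shortage of several of them activates p53.

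The 30 bases around the annotated start are shown for the 7 members that passed the FDR threshold in some line, because they are the members on which the called changes rest. Sequences are RefSeq's, build GRCm38.p6, 5′ to 3′ on the gene's strand, from 15 bases before the start to 15 bases from it onward. Capitals mark a pyrimidine tract, here a C followed by at least 4 bases that are each C or T, with its first base within 10 bases of the start, searched on the gene's strand only.
Rps2, chr17:24720048-24720077, plus strand: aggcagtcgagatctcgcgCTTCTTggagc
Rps3a1, chr3:86142654-86142683, minus strand: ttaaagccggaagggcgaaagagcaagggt
Rps7, chr12:28635939-28635968, minus strand: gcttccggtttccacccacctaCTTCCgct
Rps15a, chr7:118116133-118116162, minus strand: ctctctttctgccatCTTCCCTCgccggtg
Rps23, chr13:90923107-90923136, plus strand: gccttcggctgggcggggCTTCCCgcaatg
Rps24, chr14:24490663-24490692, plus strand: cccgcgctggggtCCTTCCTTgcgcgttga
Rps28, chr17:33824548-33824577, minus strand: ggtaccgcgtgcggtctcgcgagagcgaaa
Of these, Rps15a and Rps24 have tracts of 8 bases, Rps2 and Rps23 of 6 and Rps7 of 5, and the windows of Rps3a1 and Rps28 hold none. Rps24 has 2 annotated starts, of which the first listed is shown. Over the 25 members with a window in the RefSeq table, 16 had such a tract (64.0%), against 9297 of 27025 genes with a window (34.4%) and 19 of 32 large-subunit genes (59.4%). An annotated start can lie some bases from the start that cells use, so a window without a match says only that these letters are not in it. Among the members in the tables, the 13 with a tract and the 9 without had median mRNA changes of -0.07 and -0.08 after RACK1 removal, with footprint medians of 0.00 and -0.05. Once RPLP0 was removed their mRNA medians were 0.04 and 0.03 and their footprint medians 0.13 and 0.21. For RPLP1 the mRNA medians were 0.10 and 0.05 and the footprint medians 0.07 and 0.05. No difference between the 2 sets was tested.

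After RACK1 removal the mRNAs of 2 members passed the threshold, and they moved in opposite directions. Rps28, a head protein beside the channel through which mRNA leaves the subunit, rose by 0.54 (SE 0.118, FDR 0.00372) in the authors' deposited table. Rps24, a protein of the subunit's body that is mutated in some patients with Diamond-Blackfan anaemia, a failure of red cell production, had a log2 change of -0.41 (SE 0.112, FDR 0.0467) in the same table. Of the 12905 genes, 0.480% were called in either direction, 0.170% higher and 0.310% lower. Among the 26 members Rps28 alone (3.85%) was higher and Rps24 alone (3.85%) lower.

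Most of the other mRNAs in the RACK1 line lay slightly below 0. In all, 20 of 26 had a negative mRNA change, and the median was -0.08, against a median of 0.00 over all genes. The median implied SE of a member was 0.103, against 0.165 over all genes. Members share libraries, in this line as in the others, so their signs are not independent results. Next to Rps24, the lowest values were those of Rps21, which binds beside Rpsa on the body (-0.36, FDR 0.141), Rps25, a head protein needed for translation from some viral entry sites (-0.32, FDR 0.139), and Rps26 (-0.25, FDR 0.308), per the authors' deposited table. The authors' class code, which uses a looser limit, marked Rps21, Rps24, Rps25 and Rps28 as changed in mRNA; 2.22% of the table carried that mark. Next to Rps28, the highest mRNA values were 0.15 for Rps19, another gene of Diamond-Blackfan anaemia, with an FDR of 0.626, and 0.14 for Rps2, which lies where mRNA enters, with an FDR of 0.635, in the authors' deposited table. Rps28 therefore stood 0.54 above 0 while no other member exceeded 0.15. By place on the subunit, 13 of 15 body and platform members were below 0 with a median of -0.13, and 7 of 11 head members were below 0 with a median of -0.01.

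**Figure D1:**
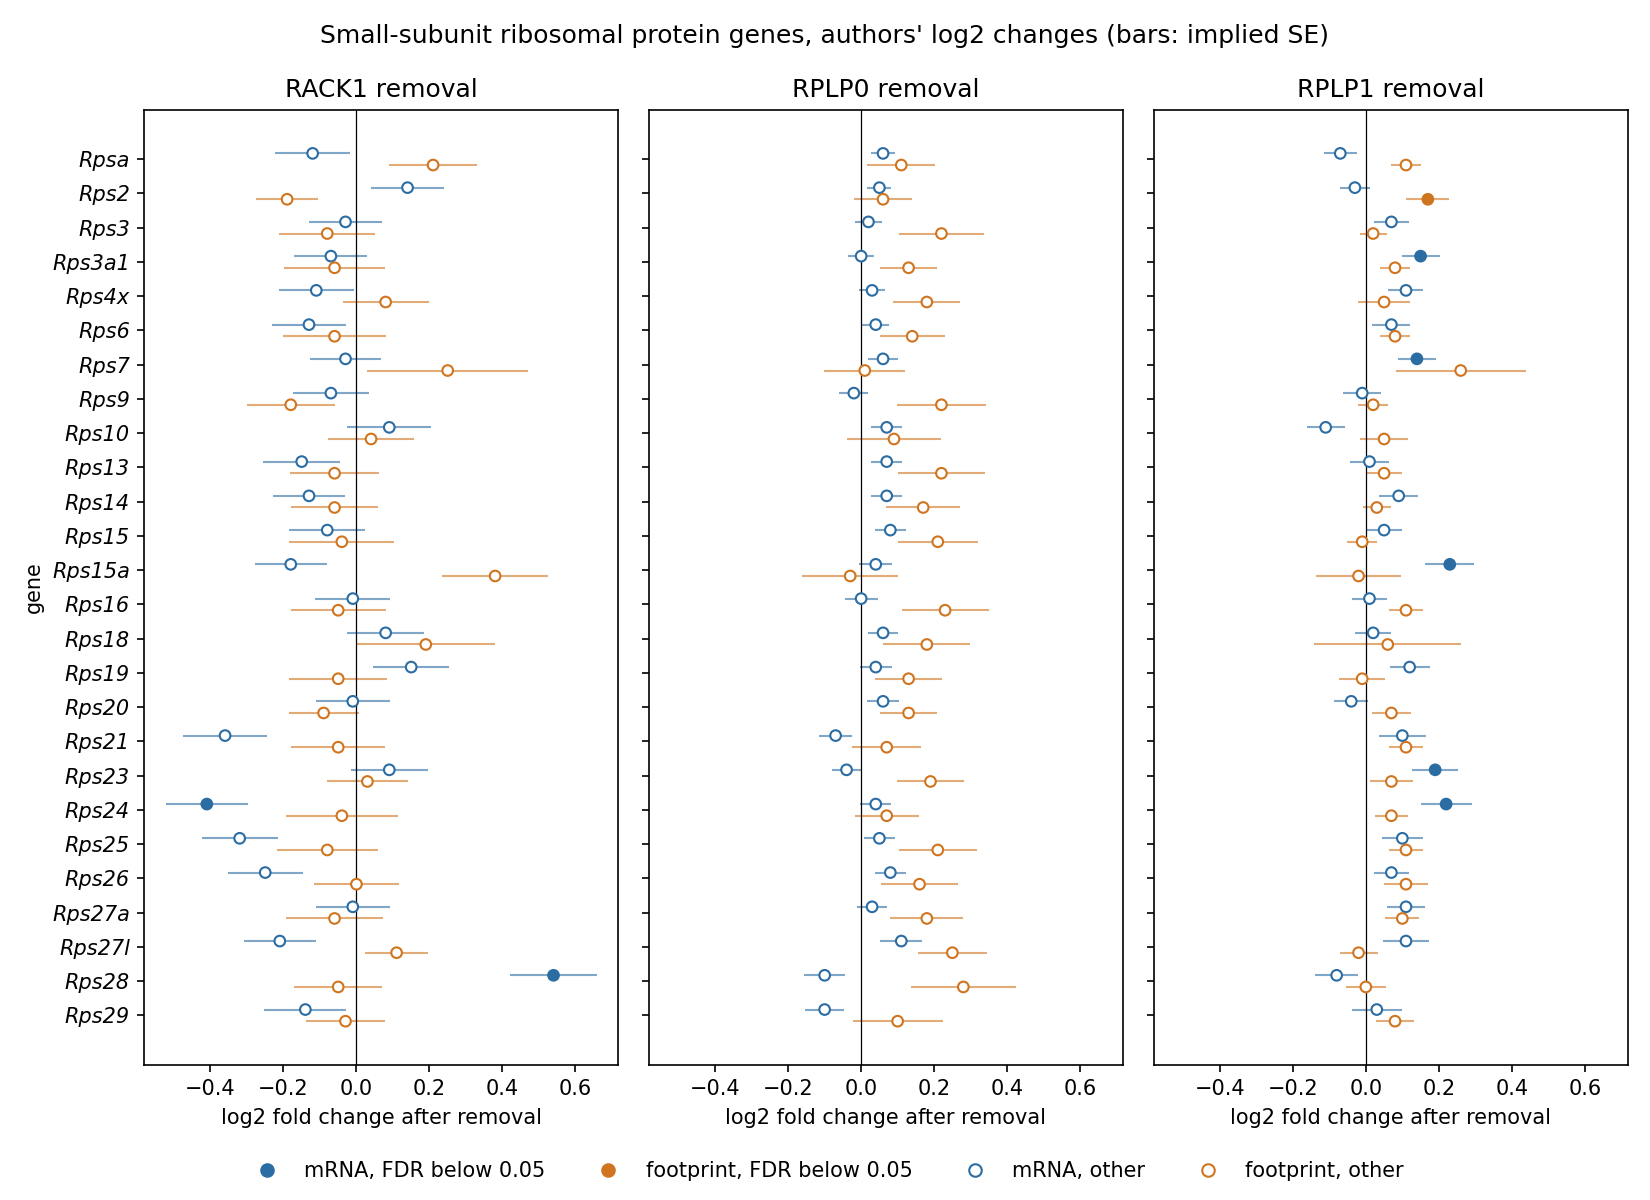
Log2 fold changes after removal (horizontal axis, one panel per line) of mRNA (blue) and footprints (orange) for the 26 members, with bars of 1 implied SE either side; filled points have an FDR below 0.05. Filled points are Rps24 and Rps28 mRNA in RACK1, Rps3a1, Rps7, Rps15a, Rps23 and Rps24 mRNA and Rps2 footprints in RPLP1, and none in RPLP0.

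Footprints of no member passed after RACK1 removal, where 0.0310% of genes did; at an unadjusted p below 0.05, recovered from the FDR, Rps15a was higher and Rps2 lower, 2 of 26 members where 8.29% of genes passed. The footprint median was -0.05, with 18 of 26 members below 0. Over all genes the median was -0.01, with 7090 of 12905 below 0. The mean over the members was 0.002, on the other side of 0. The highest values were 0.38 for Rps15a, a body protein (SE 0.145, FDR 0.461), and 0.25 for Rps7, a body protein whose free form binds the p53 ligase Mdm2 (SE 0.220, FDR 0.791), in the authors' deposited table. The lowest were Rps2 (-0.19, FDR 0.542) and Rps9 (-0.18, FDR 0.721), both near the mRNA entry, per the authors' deposited table. For the 2 members called in mRNA, Rps28 footprints had -0.05 (SE 0.120) and Rps24 footprints -0.04 (SE 0.154), each within 1 SE of 0. The median implied SE of member footprints was 0.126 in this line, against 0.0974 over all genes. This lower precision limits what the absence of calls can show.

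The neighbours of RACK1 on the head stood near 0 in that line. In the authors' deposited table, Rps3, which also lines the mRNA entry, had -0.03 for mRNA (SE 0.099, FDR 0.953) and -0.08 for footprints (SE 0.132, FDR 0.904). Rps16, whose tail reaches the decoding site, had -0.01 for mRNA (SE 0.103, FDR 0.981) and -0.05 for footprints (SE 0.130, FDR 0.934), also in the authors' deposited table. Both lie within 1 SE of 0 in both assays.

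After RPLP0 removal no member passed in mRNA, although 9.95% of the 12353 genes did, and none had an unadjusted p below 0.05, where 23.2% of genes did. All 26 mRNA changes lay between -0.10 and 0.11, inside the -0.12 to 0.13 that held the middle of the table between its quartiles. The median was 0.04, with 20 members above 0, against 0.00 over all genes. The median implied SE of the members was 0.042, against 0.105 over all genes, so their mRNAs were measured more precisely than most. The highest was Rps27l, a paralog of Rps27 and a p53 target in human cells, at 0.11 (SE 0.057, FDR 0.216) in the authors' deposited table, followed by Rps26 at 0.08 (FDR 0.223). The lowest in the authors' deposited table were Rps28 (-0.10, FDR 0.252) and Rps29, a zinc-binding head protein (-0.10, FDR 0.248).

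Footprints in the RPLP0 line lay above 0 for 25 of 26 members, with none past the threshold. The median footprint change was 0.17, against 0.00 over all genes, 49.9% of which lay above 0. The median implied SE was 0.103 for members and 0.113 over all genes, of which 2.46% passed. At an unadjusted p below 0.05 were 3 of 26 members, Rps23, Rps25 and Rps27l, all higher, where 20.7% of genes passed in either direction and 10.3% were higher. The highest footprint values in the authors' deposited table were Rps28 (0.28, SE 0.143, FDR 0.242) and Rps27l (0.25, SE 0.094, FDR 0.0978). Rps27l was the 1 member that the authors' class code marked in this line, as changed in footprints, a mark that 6.96% of genes carried. The next were Rps16 at 0.23 (FDR 0.246) and then Rps3 (FDR 0.263), Rps9 (FDR 0.269) and Rps13 (FDR 0.269), each at 0.22, per the authors' deposited table. The 1 member below 0 was Rps15a (-0.03, SE 0.131), and Rps7 was next at 0.01 (SE 0.111). Rps15a and Rps7 had been the 2 highest footprint values in the RACK1 line.

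Several members with a known role had footprint changes of 0.09 to 0.18 after RPLP0 removal, where the member median was 0.17. In the authors' deposited table, Rps6, which S6 kinase phosphorylates downstream of mTOR, had 0.14 (FDR 0.338), Rps26 had 0.16 (FDR 0.36), and Rps27a, made as a fusion to ubiquitin, had 0.18 (FDR 0.286). Rps10 and Rps20, which are ubiquitinated on collided ribosomes in human cells, had 0.09 (FDR 0.721) and 0.13 (FDR 0.321) in the same table. All 11 head members lay above 0, with a median of 0.18, as did 14 of 15 body and platform members, with a median of 0.14. Members never among the 2 highest or lowest of a line and assay had differing footprint changes after RPLP0 removal. Rps3a1 and Rps20 stood at 0.13 and Rps16 at 0.23. Others of these, Rps4x, Rps13, Rps14, Rps15 and Rps18, 5 members of body and head, had footprint changes of 0.17 to 0.22. Their footprint changes ran from -0.06 to 0.19 in RACK1 and from -0.01 to 0.06 in RPLP1, and their mRNA changes from -0.15 to 0.08, from 0.03 to 0.08 and from 0.01 to 0.11 in RACK1, RPLP0 and RPLP1.

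After RPLP1 removal 5 member mRNAs rose and none fell, 19.2% of the members, where 5.64% of the 12274 genes rose and 8.59% fell. The median implied SE of member mRNAs was 0.0518 in this line, against 0.115 over all genes, so smaller changes pass among members. Of the 26 changes, 21 lay between the table's quartiles of -0.20 and 0.14. The part of this precision in the share called was not tested. In the authors' deposited table Rps15a rose by 0.23 (SE 0.067, FDR 0.01), Rps24 by 0.22 (SE 0.070, FDR 0.0175) and Rps23, a decoding-centre protein, by 0.19 (SE 0.063, FDR 0.0265). Rps3a1, a platform protein, rose by 0.15 (SE 0.052, FDR 0.0325) and Rps7 by 0.14 (SE 0.051, FDR 0.0459), per the authors' deposited table. All 5 are body or platform members. None of the 11 head members passed, but a difference between head and body was not tested.

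Over all members the mRNA median after RPLP1 removal was 0.07, with 20 of 26 members above 0, against a median of -0.01 over all genes. The lowest mRNAs in the authors' deposited table were Rps10 (-0.11, FDR 0.135), Rps28 (-0.08, FDR 0.353) and Rpsa, which is also known as a laminin receptor (-0.07, FDR 0.328). The class code marked 9 members as changed in mRNA, 8 of them above 0 and Rps10 below, and 32.2% of the table carried that mark.

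Footprints of 1 member, Rps2, rose after RPLP1 removal, by 0.17 (SE 0.059, FDR 0.0435) in the authors' deposited table, where 3.54% of genes rose and 4.85% fell. Rps2 mRNA had -0.03 (FDR 0.648) in the same table. The class code added Rpsa (0.11, FDR 0.0718), Rps16 (0.11, FDR 0.0943) and Rps25 (0.11, FDR 0.0979), in the authors' deposited table, to make 4 marked members, where 15.0% of genes were marked. The footprint median was 0.07, with 22 of 26 above 0, against -0.01 over all genes, 48.5% of which lay above 0. Rps7 had the highest footprint value, 0.26, but with an SE of 0.178 and an FDR of 0.358 in the authors' deposited table. The called mRNAs Rps15a and Rps24 had footprint changes of -0.02 (SE 0.116) and 0.07 (SE 0.046). At a stricter FDR of 0.01, Rps28 in RACK1 mRNA was the 1 call left among the members, where 0.217% of genes passed; none was left in RPLP1, where 6.13% passed in mRNA and 0.921% in footprints.

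**Figure D2:**
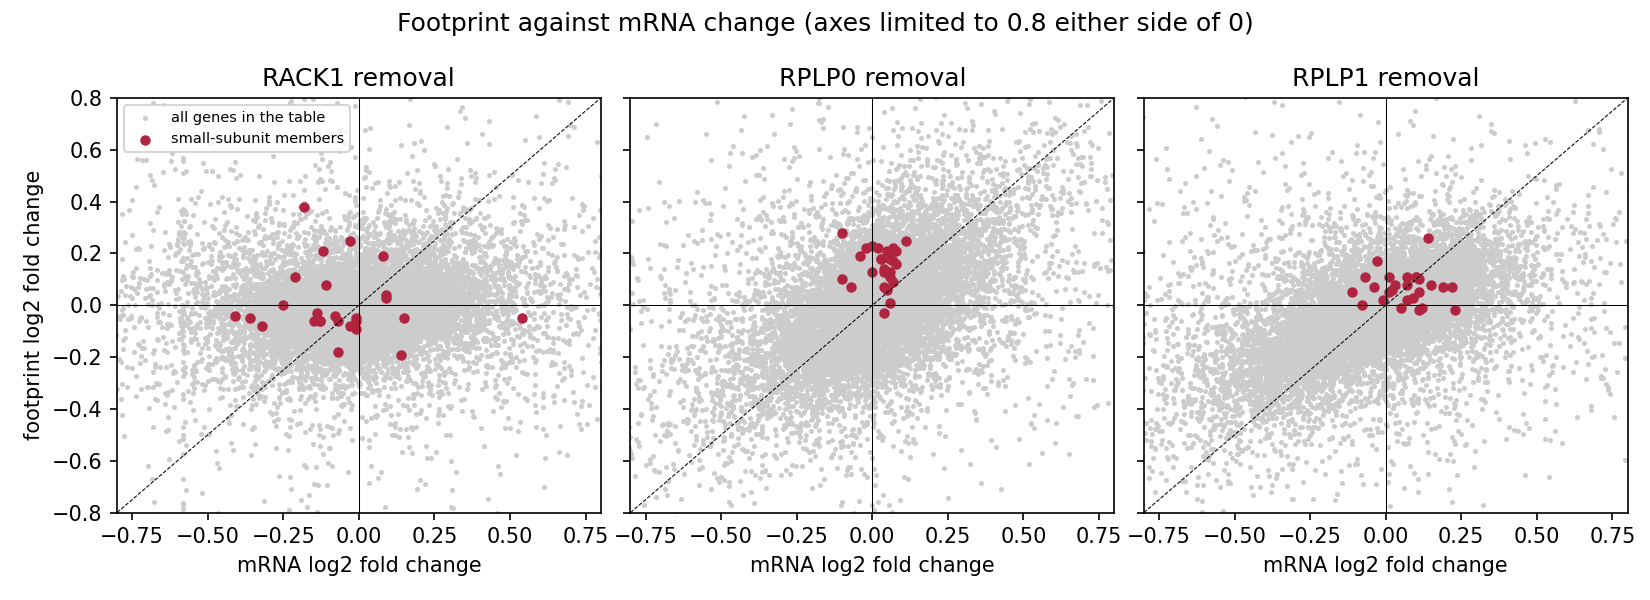
Footprint log2 change (vertical axis) against mRNA log2 change (horizontal axis) in each line; red points are the 26 members, grey points all genes in the table, and the dashed line marks equal changes. The members form a narrow upright band after RPLP0 removal, with mRNA between -0.10 and 0.11 and footprints up to 0.28.

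Translation efficiency, obtained by subtracting a gene's mRNA log2 change from its footprint log2 change, passed for no member in any line in an approximate normal test on the implied SEs with Benjamini-Hochberg adjustment over each table. In the tables as a whole 0.101% of genes passed in RACK1, 0.00810% in RPLP0 and 0.0326% in RPLP1. The test takes mRNA and footprint errors as independent, and with an error correlation of 0.5 it called 4 members in RACK1, with Rps15a and Rps27l higher and Rps2 and Rps28 lower, 2 in RPLP1, with Rpsa and Rps2 higher, and none in RPLP0. Under that correlation 3.26% of all genes passed in RACK1, 3.85% in RPLP1 and 1.98% in RPLP0. At an unadjusted p below 0.05 there were 4 members higher and 2 lower in RACK1, where 7.93% of genes passed in either direction. By the same limit 2 members were higher in RPLP0 and 2 in RPLP1, where 3.52% and 3.94% of genes were higher.

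The largest efficiency values were in the RACK1 line. Rps28 had -0.59 (SE 0.169), with its mRNA at 0.54 and its footprints at -0.05, and Rps15a had 0.57 (SE 0.175), with its mRNA at -0.18 and its footprints at 0.38. After RPLP0 removal Rps28 had the highest value, 0.38 (SE 0.154), and Rps15a the lowest, -0.07 (SE 0.138). After RPLP1 removal Rps15a again had the lowest value, -0.25 (SE 0.134), and Rps2 the highest, 0.20 (SE 0.071). The medians were 0.07 in RACK1, 0.13 in RPLP0 and 0.01 in RPLP1, with 16, 24 and 15 of 26 members above 0, against 48.2%, 49.8% and 50.4% of all genes.

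Within a line, members with a higher mRNA change did not tend to have a higher footprint change. Across the 26 members, which share libraries, the Spearman correlation of the assays was -0.15 in RACK1, -0.03 in RPLP0 and -0.04 in RPLP1. Over all genes it was 0.12, 0.47 and 0.51. The quartiles of the members' mRNA changes lay 0.055 apart in RPLP0 and 0.098 apart in RPLP1, against median SEs of 0.042 and 0.0518. In RACK1 they lay 0.139 apart in mRNA and 0.094 apart in footprints, against median SEs of 0.103 and 0.126. So narrow a range beside its error lowers a correlation, and its part in these values was not tested.

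The mRNA responses of the lines were compared member by member with the same approximate normal test, adjusted over all genes that 2 tables share, and a pair is said to differ where the adjusted p was below 0.05. The lines have separate controls. RACK1 and RPLP1 differed for 5 members, where 7.92% of genes differed. Rps24 had -0.41 after RACK1 removal and 0.22 after RPLP1 removal, a difference of -0.64 (SE 0.13), and it passed the authors' threshold in both lines with opposite signs. Rps28 had 0.54 after RACK1 removal and -0.08 after RPLP1 removal, a difference of 0.62 (SE 0.13). Rps21 (-0.36 and 0.10), Rps25 (-0.32 and 0.10) and Rps15a (-0.18 and 0.23) were lower in the RACK1 line, by differences of -0.46 (SE 0.13), -0.43 (SE 0.12) and -0.41 (SE 0.12). In all, 17 members had mRNA below 0 after RACK1 removal and above 0 after RPLP1 removal, and 3 the reverse. The share of all genes with these pairs of signs was not counted. Line by line, 23.1% of members lay above 0 after RACK1 removal and 76.9% after RPLP1 removal, against 50.1% and 49% of all genes. The Spearman correlation of the 2 lines' mRNA changes was -0.37 across the 26 members and -0.15 across all shared genes. The members share libraries and their changes span a narrow range beside the SEs, and this correlation was not tested.

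RACK1 and RPLP0 differed in mRNA for 3 members, where 3.34% of genes differed. Rps28 had 0.54 after RACK1 removal and -0.10 after RPLP0 removal, a difference of 0.64 (SE 0.13). Rps24 had -0.41 and 0.04 in these lines, a difference of -0.46 (SE 0.12), and Rps25 -0.32 and 0.05, a difference of -0.37 (SE 0.11). Rps26 had -0.25 after RACK1 removal and 0.08 after RPLP0 removal, a difference of -0.33 (SE 0.11) that did not pass.

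The stalk lines differed from each other for 1 member mRNA, where 12.2% of genes differed. Rps23 had 0.19 after RPLP1 removal and -0.04 after RPLP0 removal, a difference of 0.23 (SE 0.07). Footprint changes differed between lines for no member in any of the 3 pairs, where 0.682% of genes differed between RACK1 and RPLP0, 4.76% between RPLP1 and RPLP0 and 0.107% between RACK1 and RPLP1. At an unadjusted p below 0.05 the pairs held 3, 1 and 2 members, where 16.2%, 23.8% and 10.6% of genes passed. Closest to the threshold were Rps27l, with -0.02 after RPLP1 removal and 0.25 after RPLP0 removal, a difference of -0.27 (SE 0.11), and Rps2, with -0.19 after RACK1 removal and 0.17 after RPLP1 removal, a difference of -0.36 (SE 0.10).

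**Figure D3:**
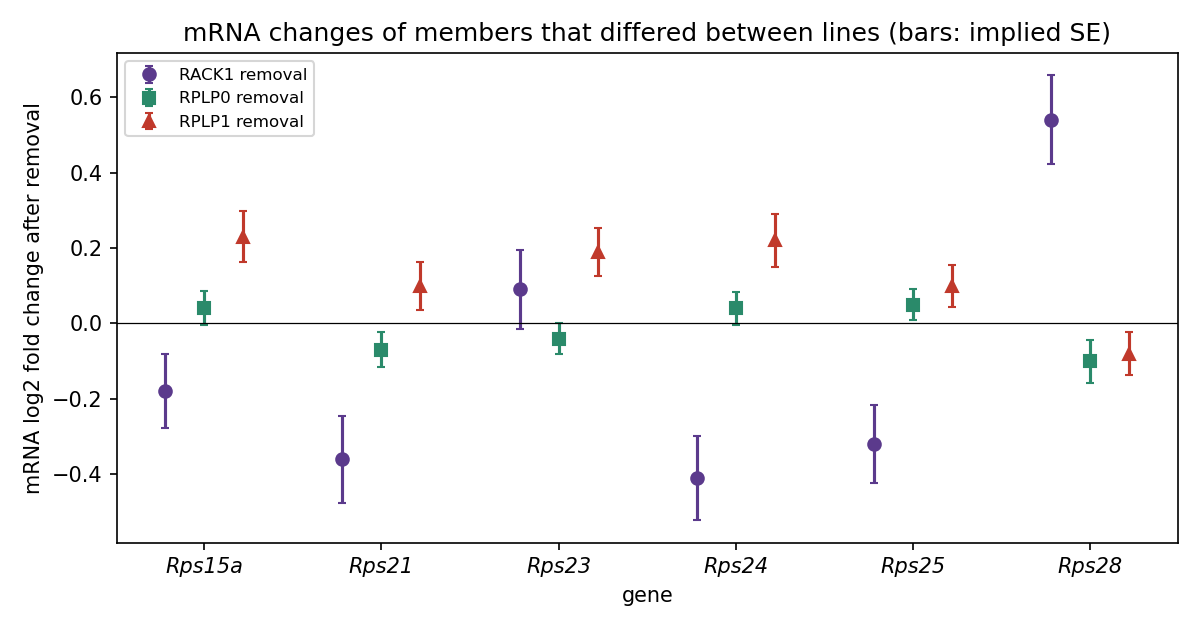
mRNA log2 changes after removal (vertical axis) of the 6 members whose mRNA response differed between at least 2 lines in the approximate test, with bars of 1 implied SE. Rps24 has -0.41 in RACK1, 0.04 in RPLP0 and 0.22 in RPLP1, and Rps28 has 0.54, -0.10 and -0.08.

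Genes that work with the small subunit were counted in the same tables. The 26 members had median mRNA changes of -0.08 in RACK1, 0.04 in RPLP0 and 0.07 in RPLP1, against -0.11, 0.02 and 0.07 for 44 large-subunit ribosomal protein genes. Median footprint changes were -0.05, 0.17 and 0.07 for the members, against -0.04, 0.14 and 0.08 for the large-subunit genes. Of the 44, none passed in mRNA after RACK1 removal, 2 fell after RPLP0 removal, Rpl3 (-0.25) and Rpl10a (-0.15), and 9 rose and 3 fell after RPLP1 removal, the largest increase being that of Rpl35a (0.32), in the authors' deposited table. None passed in footprints in RACK1 or RPLP0, and in RPLP1 Rpl5 (0.15) and Rpl23 (0.13) rose and Rplp0 (-0.38) fell, per the authors' deposited table. In RPLP0 mRNA 4.55% of the 44 fell, against 4.90% of all genes. In RPLP1 mRNA 20.5% rose and 6.82% fell, against 5.64% and 8.59% of all genes. The median implied SE of the 44 was 0.0525 there, against 0.115 over all genes. In RPLP1 footprints 4.55% rose and 2.27% fell, against 3.54% and 4.85%. Over all genes 0.480% passed in RACK1 mRNA, 0.0310% in RACK1 footprints and 2.46% in RPLP0 footprints. Footprint changes after RPLP0 removal lay above 0 for 25 of 26 small-subunit members and 38 of 44 large-subunit genes, and a difference between the lists was not tested.

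Of 17 other mRNAs with a terminal oligopyrimidine tract, the nucleolar chaperone Npm1 fell after RACK1 removal (-0.41) and rose after RPLP1 removal (0.29) in mRNA, in the authors' deposited table, the same pair of directions as Rps24. In that table the poly(A)-binding protein mRNA Pabpc1 rose after RPLP0 removal (0.10), and the elongation factor mRNA Eef1a1 (0.14) and Hnrnpa1 (0.36) rose after RPLP1 removal. In footprints of the RPLP1 line the authors' deposited table has increases for Pabpc1 (0.19), Tpt1 (0.14) and Ybx1 (0.13), and no other member of this list passed. Of the 17, Npm1 alone (5.88%) fell in RACK1 mRNA, against 0.310% of all genes. Pabpc1 alone (5.88%) rose in RPLP0 mRNA, against 5.05%. In RPLP1 17.6% rose in mRNA and 17.6% in footprints, against 5.64% and 3.54% of all genes. The list's median implied SEs were 0.0547 and 0.0438 there, against 0.115 and 0.0875 over all genes. The list's footprint medians were -0.07 in RACK1, 0.09 in RPLP0 and 0.06 in RPLP1.

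The 23 assembly factors, which build the small subunit's precursors, had a footprint median of -0.01 after RPLP0 removal, with 10 above 0. Nob1 (0.21), Rps19bp1 (0.28) and Utp20 (0.18) rose in mRNA in that line, per the authors' deposited table. After RPLP1 removal Krr1 rose in mRNA (0.23), and Riok2 (0.22), Tsr1 (0.15) and Utp20 (0.17) in footprints, in the authors' deposited table. In RPLP0 mRNA 13.0% of the assembly factors rose, against 5.05% of all genes. In RPLP1 4.35% rose in mRNA and 13.0% in footprints, against 5.64% and 3.54% of all genes. Among 19 initiation factors that act on the small subunit, Eif1, which guards start-codon choice, rose after RPLP0 removal in mRNA (0.23) and footprints (0.33) in the authors' deposited table. Eif5b, which joins the subunits, fell in mRNA after RPLP0 removal (-0.29) and rose after RPLP1 removal (0.49) in the same table. Eif2s1 and Eif5 rose in both assays after RPLP1 removal, by 0.21 and 0.18 in mRNA and by 0.17 and 0.21 in footprints, and Eif1 footprints rose by 0.14, in the authors' deposited table. Of the initiation factors Eif1 alone (5.26%) rose and Eif5b alone (5.26%) fell in RPLP0 mRNA, against 5.05% and 4.90% of all genes. In RPLP0 footprints Eif1 alone (5.26% of them) rose, against 1.42% of all genes. In RPLP1 15.8% rose in mRNA and 15.8% in footprints, against 5.64% and 3.54% of all genes. The assembly and initiation factors had median footprint SEs of 0.0479 and 0.0436 in RPLP1, against 0.0875 over all genes. Their median mRNA SEs were 0.072 and 0.0594, against 0.115. No assembly or initiation factor passed after RACK1 removal in either assay, where 0.480% of genes passed in mRNA and 0.0310% in footprints.

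**Figure D4:**
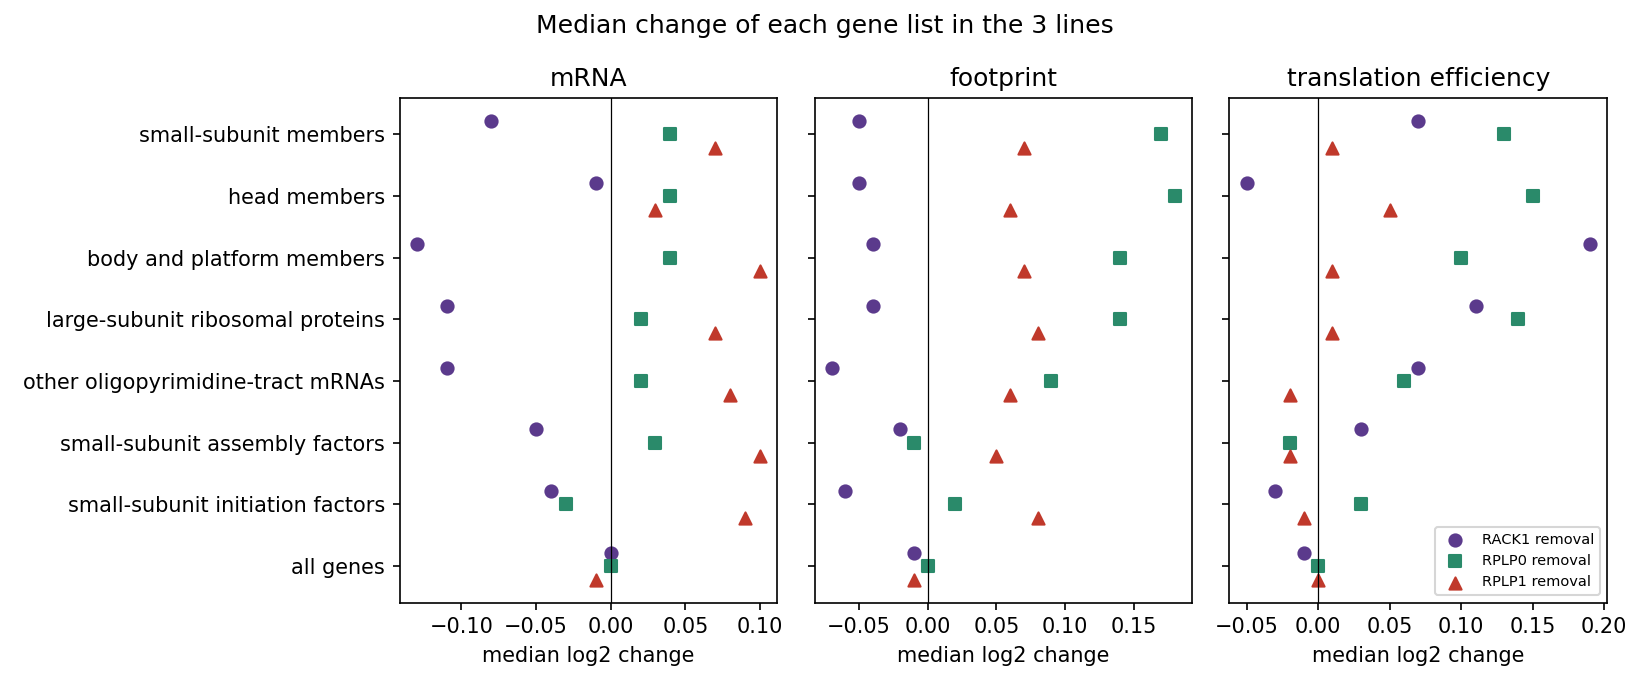
Median log2 change (horizontal axes) of mRNA, footprints and translation efficiency for each gene list, with 1 symbol per line. In footprints the RPLP0 squares stand at 0.17 for the 26 small-subunit members and 0.14 for large-subunit genes, and at -0.01 for assembly factors.

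Ribosomal protein genes have many processed copies in the genome, and RefSeq names at least 1 pseudogene for 21 of the 29 members, 109 in all. Reads of such copies and of the gene cannot always be told apart, and the authors' way of counting them is not stated in the labels or headers. Of the called members Rps2 has 12 named pseudogenes, Rps15a 8, Rps7 3, Rps23 2 and Rps24 2, and Rps3a1 and Rps28 have none under the gene's own name. Copies under other names were not counted, so the values of all members are uncertain to that extent.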

How the data were processed

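Per the labels, mRNA was measured in polyadenylated RNA of 3 IAA and 3 DMSO samples per line, and footprints in 1 combined library per line. Each deposited table gives, per the file headers, log2 fold changes after removal for both assays with an FDR (adjusted p-value), and a class code of change (none, mRNA, footprints or both); the RPLP0 table has no legend, and that of the other tables was assumed. Nothing in the labels or headers names the aligner, counting, test or genome build, or says how footprint FDRs came from a combined library, so the spread they measure is unknown. Without counts the depth is unknown.

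A gene was called where the authors' FDR was below 0.05. The p-value behind an FDR was recovered by undoing the Benjamini-Hochberg step over the table, with interpolation where genes share an FDR, and the SE is the change divided by its normal quantile. Up to 23 of 26 members shared their FDR with other genes, so most SEs are interpolated. Translation efficiency and differences between lines were tested with these SEs over all genes, assuming normal errors. The recovery of SEs and the efficiency test were tried on simulated data with independent normal errors. Such data cannot show whether the real errors are normal or independent, or how the authors' FDRs arose. Members and lists were chosen with earlier results of these data known. Named genes are members past a threshold, the 2 highest and 2 lowest per line and assay, and members named for their role. Rpsa, Rps13, Rps20 and the genes of other lists were named after their values were seen. Rps4x, Rps14, Rps15 and Rps18 were named so that every member is accounted for. Python 3.11.15, pandas 2.3.3 and scipy 1.17.1 were used.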

Additional observations from a re-analysis of the deposited data

Results flagged for a closer look

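The mRNA changes of members below differed between lines in the approximate normal test with Benjamini-Hochberg adjustment over all shared genes. Between RACK1 and RPLP1 the differences were -0.64 for Rps24, 0.62 for Rps28, -0.46 for Rps21, -0.43 for Rps25 and -0.41 for Rps15a. Between RACK1 and RPLP0 they were 0.64 for Rps28, -0.46 for Rps24 and -0.37 for Rps25. Both comparisons use the same RACK1 values, so the return of these genes is no replication. Between RPLP1 and RPLP0 the difference was 0.23 for Rps23. Footprints of these members did not pass in any pair.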

How the results depend on the processing

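No paired analysis was possible because the tables hold no value per replicate, and for the same reason no replicate could be left out. At an FDR threshold of 0.1 the RPLP0 line had 1 footprint call, where 6.96% of genes passed, and RPLP1 had 4, where 15.0% passed; mRNA differed for 5 members between RACK1 and RPLP0 (5.65% of genes) and for 4 between RPLP1 and RPLP0 (17.4%). At 0.01, 1 mRNA call was left in RACK1 and 0 mRNA and 0 footprint calls in RPLP1. By the authors' class code the counts were 4 in RACK1 mRNA, 1 in RPLP0 footprints, 9 in RPLP1 mRNA and 4 in RPLP1 footprints. Of all genes 2.22%, 6.96%, 32.2% and 15.0% carried these marks. In RPLP0 and RPLP1 footprints the code marked as many genes as an FDR below 0.1 did, 860 and 1840. These 2 alternatives were therefore not separate there. With an error correlation of 0.5 translation efficiency passed for 4 members in RACK1 and 2 in RPLP1, where 3.26% and 3.85% of genes passed. The mean footprint change in RACK1 was 0.002, against a median of -0.05. Centring on all genes, leaving out Rps26 and Rps27l, and, chosen after the data were seen, the largest SE that each FDR allows changed no direction and no count by over 1.5 times. Of 72 alternatives over counts and medians, 58 stayed the same by that measure or, for medians, within 1 median SE. All single calls but Rps28 in RACK1 had an FDR of 0.01 or more. Depth is unknown, so limits of detection could not be set.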

Other observations

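The footprint precision of members differed widely within a line. After RPLP1 removal the implied SE was 0.202 for Rps18, 0.178 for Rps7 and 0.116 for Rps15a, against a median of 0.05 over the members. RefSeq names 6, 3 and 8 pseudogenes for these genes. Rpsa and Rps2, with 12 named pseudogenes each, had SEs of 0.040 and 0.059 in the same line. A relation between pseudogene number and SE over the members was not tested.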
